A study of Rattus norvegicus with 192 samples.

Results

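The genes described here are 5 endocrine genes of cells that lie within or beside the thyroid follicles. Pth, Casr and Gcm2 are grouped as parathyroid genes, and Calca and Calcb as C cell genes. Bulk counts do not show which cells gave the transcripts of a gene, Casr included. They were chosen by symbol, not by any measured value, and are 5 of the 17483 genes in the table; all 5 were present and passed the filter on low counts. Thyroid was 1 of 4 tissues, with liver, pituitary and hypothalamus, taken from adult male Crl:CD(SD) rats and profiled by 3' bulk RNA barcoding sequencing (BRB-seq), which tags the RNA of each sample with its own barcode before pooling. The rats received corn oil (vehicle), 8 mg/kg/day of the glycopeptide antibiotic vancomycin, 3 mg/kg/day of the perfluorinated surfactant PFOS, or both at these doses (the combination), by gavage on 7 days, from postnatal day 56 to 62. All were wild type, and every group, the combination included, was compared within thyroid. The title of the series names PFOS and the thyroid hormone system, and these 5 genes were measured as part of the sampled gland.

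Of 48 thyroid libraries, 46 held at least 100000 counts and were used: 12 vehicle, 12 vancomycin, 10 PFOS and 12 combination. Totals ran from 208981 to 1136183 counts (median 501447), with group means of 797237 ± 294168 (SD) under vehicle, 541399 ± 139342 under vancomycin, 506273 ± 112227 under PFOS and 378578 ± 111728 under the combination. Mean depth was thus highest under vehicle and lowest under the combination. The plate row also followed treatment, with 1 row for each, so the row's effect and the treatment's cannot be told apart, and 5 of the 12 combination libraries carried a barcode of another GC content than the rest. No label says that libraries of a group came from separate animals, so the p-values measure the spread between these samples.

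Parathyroid hormone, the product of Pth, is secreted by the chief cells of the parathyroid glands and raises blood calcium. Its release is held back by the calcium-sensing receptor encoded by Casr, and Gcm2 encodes the transcription factor on which the formation and survival of parathyroid cells depend. Calca gives rise to calcitonin in thyroid C cells and, by alternative splicing, to the neuropeptide CGRP; Calcb encodes a second CGRP. Counts per gene cannot separate the calcitonin and CGRP transcripts of Calca, and Calca and Calcb are paralogs whose reads may have been divided with some error. In rats a pair of parathyroid glands lies on or in the thyroid lobes, and C cells lie between the follicles.

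The annotated genes Calca and Calcb are direct neighbours in the RefSeq order of the assembly GRCr8, with 0 genes between them, and Pth lies on the same chromosome with 22 genes (12 of them protein-coding) between it and Calca. The 250 bases before the annotated start of Pth, Casr and Calca are shown, as these are the 3 of 5 genes found in the RefSeq promoter table of GRCr8. They are read 5′ to 3′ on the strand of the gene and end at the base before the start. The windows are chr1:176946035-176946284 (minus strand) for Pth, chr11:77740364-77740613 (plus strand) for Casr and chr1:178317530-178317779 (minus strand) for Calca. Capitals mark matches to 6 motifs searched on both strands: the TATA box TATAAA, the CCAAT box CCAAT, the GC box CCGCCC, the cAMP response element TGACNTCA, the GCM core ATGCGGG and the E-box CAGNTG.
Pth: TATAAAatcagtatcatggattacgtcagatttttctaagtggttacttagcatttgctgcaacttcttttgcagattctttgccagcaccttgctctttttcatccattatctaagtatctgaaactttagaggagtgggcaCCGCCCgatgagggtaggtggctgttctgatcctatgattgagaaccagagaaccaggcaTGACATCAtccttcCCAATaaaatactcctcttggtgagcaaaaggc
Casr: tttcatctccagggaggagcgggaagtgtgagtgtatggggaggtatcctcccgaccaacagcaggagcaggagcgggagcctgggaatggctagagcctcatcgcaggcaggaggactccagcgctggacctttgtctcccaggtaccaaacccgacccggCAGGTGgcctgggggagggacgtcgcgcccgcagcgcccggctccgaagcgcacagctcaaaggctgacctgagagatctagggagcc
Calca: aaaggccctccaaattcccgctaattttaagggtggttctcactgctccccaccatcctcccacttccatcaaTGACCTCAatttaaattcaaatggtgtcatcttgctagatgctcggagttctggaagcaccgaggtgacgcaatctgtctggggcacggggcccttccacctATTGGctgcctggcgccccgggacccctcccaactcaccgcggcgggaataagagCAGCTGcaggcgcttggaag
The Pth window held the TATA box letters at its far end, 250 to 245 bases before the start. It also held a GC box (107 to 102 bases before it), a cAMP response element (as TGACATCA, 47 to 40) and a CCAAT box (33 to 29). In the Calca window there was a cAMP response element (as TGACCTCA), a CCAAT box on the reverse strand and an E-box that reads the same on both strands. The Casr window held an E-box alone. A cAMP response element was thus found in front of both hormone genes, a motif present in 8.88% of the 33469 promoters of the table, whereas the other motifs were found in 12.9% (TATA box), 34.02% (CCAAT box), 30.5% (GC box), 43.3% (E-box) and 1.10% (GCM core) of them. The GCM core letters were in none of the 3 windows. GC content was 64.8% for Casr and 56.4% for Calca, above the median of 51.2% over the table, and lower than it for Pth. A match describes the letters only, and the series lists the build rn6, whose coordinates were not used here.

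All 5 genes were detected in the thyroid samples. Levels are given in CPM, a gene's counts scaled to the total of its library; since reads come from transcript ends, levels of different genes are not compared. Over the 46 libraries Pth averaged 42043 ± 14013 CPM (mean ± SD) and Calca 8069 ± 2134 CPM. Calcb averaged 364 ± 182 CPM, Casr 82.9 ± 23.3 CPM and Gcm2 20.6 ± 11.5 CPM. The labels name the tissue as thyroid, and thyroglobulin (Tg), the follicular scaffold of thyroid hormone, averaged 53299 ± 12507 CPM, so the samples held follicular, parathyroid and C cell transcripts together.

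PFOS libraries 27 and 29 stood apart before any comparison. Their Pth levels were 1820 and 1687 CPM, while the other 8 PFOS libraries ranged from 35947 to 66987 CPM and the next lowest library of any group, combination 40, stood at 11093 CPM. Gcm2 followed: library 27 held 0 counts, which allows a level of up to 6.18 CPM at its depth, and library 29 held 2 counts. Chga (chromogranin A, a core protein of endocrine secretory granules) was at 126 and 86.8 CPM there and at no less than 390 CPM in the other 44 libraries. Casr, at 88.6 and 49.4 CPM, Calca, at 11607 and 6394 CPM, and Calcb, at 237 and 296 CPM, lay within the range of the other libraries. The 16 follicular marker genes summed to 72744 and 72589 CPM in these libraries, within the 40257 to 86515 CPM of all libraries. Whether less parathyroid tissue was taken or less RNA was present per cell cannot be told apart in bulk samples, and neither was tested. Many, but not all, contrasts, correlations and ratios that include PFOS libraries are given with and without these libraries. Combination 40 had the lowest Gcm2 (4.31 CPM) and Casr (40.96 CPM) values of its group beside its low Pth level, with Calca at 9308 CPM.

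Pth showed no difference between treatments beyond the spread of the libraries. Under vehicle it ranged from 28392 to 56780 CPM with a median of 47114 CPM, under vancomycin from 26301 to 57965 CPM (median 40608 CPM), under PFOS from 1687 to 66987 CPM (median 41145 CPM) and under the combination from 11093 to 62097 CPM (median 43363 CPM). The groups overlapped throughout, with means of 45572 ± 8372, 41546 ± 10899.5, 37117 ± 20699 and 43115 ± 15057 CPM in that order. PFOS against vehicle gave a log2 fold change of -0.31 ± 0.34 (SE, edgeR adjusted p = 0.679), which became -0.00 without libraries 27 and 29. Vancomycin against vehicle gave -0.13 ± 0.32 (95% interval -0.77 to 0.51, edgeR adjusted p = 0.9998). The interval spans changes from 0.58-fold to 1.42-fold, so changes within that range are not excluded. Libraries 27 and 29 enter the spread that the fit shares over all groups. Without them vancomycin against vehicle gave -0.14 ± 0.17 for Pth.

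Gcm2, the transcription factor gene, was the scarcest of the 5, with 542 counts over all libraries and between 0 and 49 in any one. Its levels ran from 9.12 to 44.3 CPM under vehicle (median 19.4), from 6.91 to 44.7 under vancomycin (median 19.1), from 0 to 37.2 under PFOS (median 17.8) and from 4.31 to 56.4 under the combination (median 19.2). The medians lay close together and the ranges overlapped. PFOS against vehicle gave -0.48 ± 0.34 (log2, edgeR adjusted p = 0.488), and -0.14 without libraries 27 and 29.

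Casr, the receptor gene, had its highest mean under the combination, at 98.5 ± 27.2 CPM, beside 81.1 ± 17.8 CPM under vehicle, 80.4 ± 21.7 CPM under PFOS and 71.3 ± 19.1 CPM under vancomycin. Its lowest, median and highest values were 51.1, 78.5 and 109 CPM under vehicle, 31.1, 73.1 and 98.0 CPM under vancomycin, 49.4, 77.2 and 121 CPM under PFOS, and 40.96, 101 and 128 CPM under the combination. In vancomycin-treated rats, 11 of 12 libraries with PFOS lay above the mean without it. That difference was 0.43 ± 0.16 on the log2 scale (unadjusted p = 0.00845, edgeR adjusted p = 0.105) and did not pass the threshold of 0.05. It passed without combination library 40 (log2 fold change 0.51, edgeR adjusted p = 0.0365), the library with low Casr, Pth and Gcm2, and among libraries with at least 500000 counts (0.85, edgeR adjusted p = 0.0373), where 2 combination libraries remained. It did not pass with log2 depth as a covariate (0.34, edgeR adjusted p = 0.596), with barcode GC content as a covariate (0.39, edgeR adjusted p = 0.234) or without vancomycin library 15 (0.36, edgeR adjusted p = 0.190). Casr levels also ran against log2 depth (Spearman -0.39, permutation adjusted p = 0.0237; Pearson -0.33, permutation adjusted p = 0.0762). The interaction, which asks whether PFOS acted differently with and without vancomycin, was 0.47 ± 0.22 (unadjusted p = 0.0409, edgeR adjusted p = 0.9999), and 0.40 without PFOS 27 and 29 (unadjusted p = 0.0879). PFOS against vehicle gave -0.04 for Casr, and 0.03 without them.

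**Figure D1:**
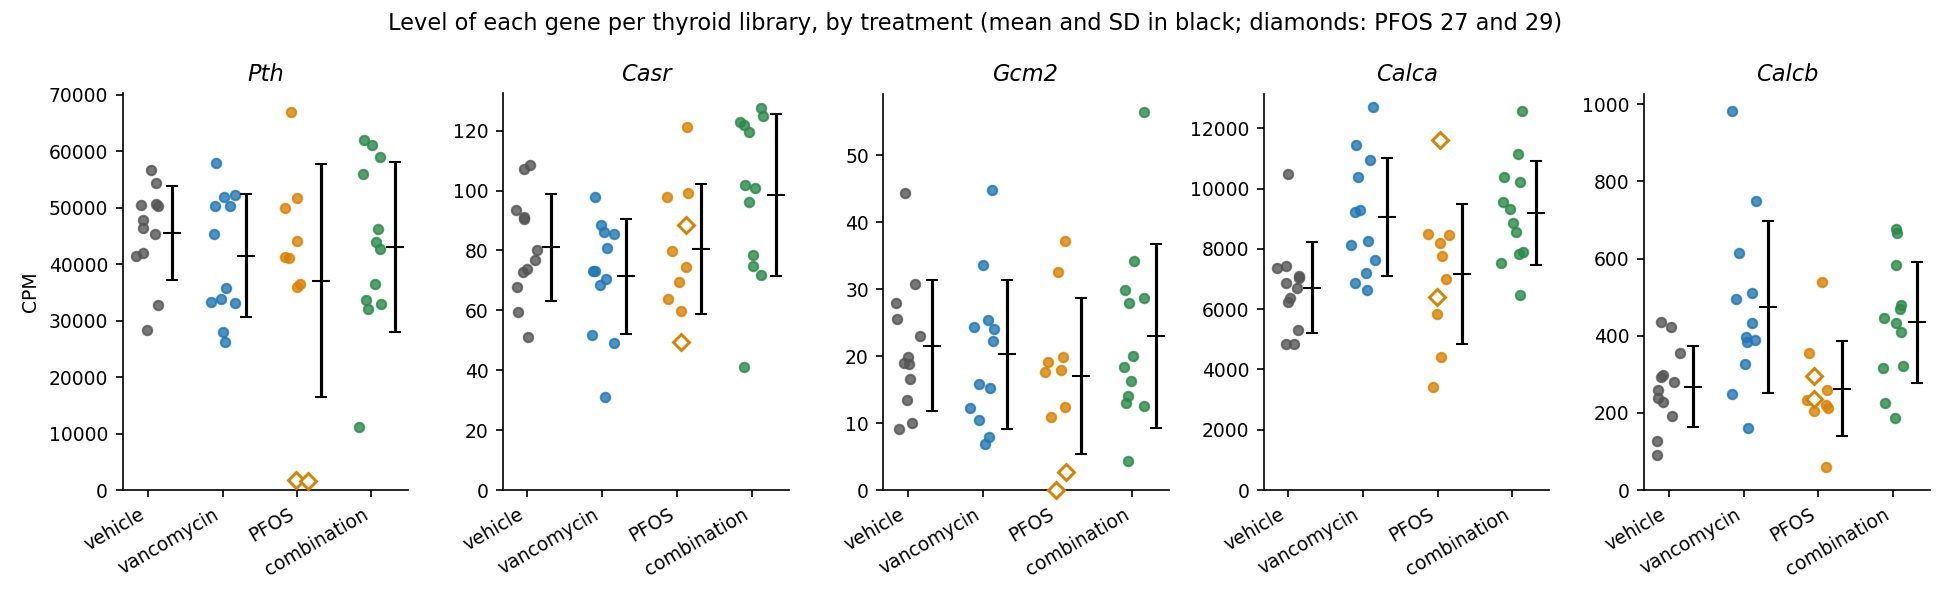
Levels in CPM (linear axes from 0) of the 5 genes in each of the 46 thyroid libraries, by treatment, with the group mean and SD in black. The open diamonds, PFOS libraries 27 and 29, sit near the bottom for Pth (1820 and 1687 CPM) and Gcm2. For Casr, Calca and Calcb they lie within the range of the other libraries.

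Calca was higher in both groups that received vancomycin, though no contrast passed the threshold over all genes. Under vehicle it ranged from 4852 to 10494 CPM with a median of 6775 CPM, under PFOS from 3426 to 11607 CPM (median 7381 CPM), under vancomycin from 6647 to 12692 CPM (median 8752 CPM) and under the combination from 6483 to 12589 CPM (median 9075 CPM). The group means were 6713 ± 1499.5, 7159 ± 2324, 9058 ± 1954 and 9194 ± 1712 CPM. The ranges overlapped, but 11 of 12 vancomycin libraries and 11 of 12 combination libraries lay above the vehicle mean. The log2 fold change was 0.44 ± 0.13 for vancomycin against vehicle (unadjusted p = 0.00214, edgeR adjusted p = 0.9998), a 1.35-fold difference with a 95% interval from 1.12 to 1.63. For the combination against vehicle it was 0.42 ± 0.13 (unadjusted p = 0.00328, edgeR adjusted p = 0.0766). Within PFOS-treated rats vancomycin gave 0.34 ± 0.14 (unadjusted p = 0.0189, edgeR adjusted p = 0.736), and PFOS against vehicle gave 0.07 ± 0.14. These were 0.42 and -0.01 without PFOS 27 and 29.

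Calcb was also higher in both groups given vancomycin, with a wider spread and no contrast past the threshold. Its lowest, median and highest values were 91.6, 269.7 and 435 CPM under vehicle, 60.0, 236 and 539 CPM under PFOS, 161, 415 and 982 CPM under vancomycin, and 187, 439 and 676 CPM under the combination. Mean levels were 268 ± 104 CPM under vehicle, 262 ± 123 CPM under PFOS, 474 ± 223 CPM under vancomycin and 434 ± 156 CPM under the combination. In each of the groups given vancomycin, 10 of 12 libraries exceeded the vehicle mean. The log2 fold change was 0.84 ± 0.26 for vancomycin against vehicle (unadjusted p = 0.00221, edgeR adjusted p = 0.9998), 0.67 ± 0.26 for the combination (edgeR adjusted p = 0.130) and 0.71 ± 0.28 for vancomycin in PFOS-treated rats (edgeR adjusted p = 0.711). Without PFOS 27 and 29 the last of these was 0.70, and PFOS against vehicle was -0.04 beside -0.03 with them. The first comparisons share the vehicle libraries and are not independent of each other.

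Depth moved with these values. Log2 depth correlated with Calca (Pearson r = -0.40, adjusted p = 0.0273; Spearman rho = -0.53, adjusted p = 0.00107) and with Calcb (r = -0.49, adjusted p = 0.0048; rho = -0.48, adjusted p = 0.00455) over the 46 libraries by permutation tests, and vehicle libraries were the deepest. For Calca r within treatments was -0.37 under vehicle, -0.61 under vancomycin, 0.15 under PFOS and -0.10 under the combination, and for Calcb it was -0.65, -0.49, -0.19 and -0.35. With log2 depth as a covariate the differences were 0.35 for Calca and 0.56 for Calcb under vancomycin, and 0.24 and 0.10 under the combination. Without the 5 combination libraries of other barcode GC content the combination differences were 0.33 and 0.49. The part of depth and plate row in these differences cannot be told apart from treatment.

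Averaged over both levels of PFOS, a contrast added after the data were seen, vancomycin went with a difference of 0.39 ± 0.10 in Calca (unadjusted p = 0.00022, edgeR adjusted p = 0.373) and 0.77 ± 0.19 in Calcb (unadjusted p = 0.000199, edgeR adjusted p = 0.373). For Pth, Casr and Gcm2 the corresponding values were 0.03 ± 0.23, 0.04 ± 0.11 and 0.17 ± 0.24. PFOS averaged over both levels of vancomycin gave -0.15 ± 0.23 for Pth, 0.20 ± 0.11 for Casr, -0.18 ± 0.24 for Gcm2, 0.03 ± 0.10 for Calca and -0.10 ± 0.19 for Calcb. Without PFOS 27 and 29 the averaged vancomycin differences were 0.42 for Calca, 0.77 for Calcb and -0.13 for Pth, and the averaged PFOS differences were 0.00 for Pth, 0.23 for Casr and -0.01 for Gcm2. In this PFOS contrast 13.1% of the 5091 genes tested were called, and none of the 5 genes was among them.

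**Figure D2:**
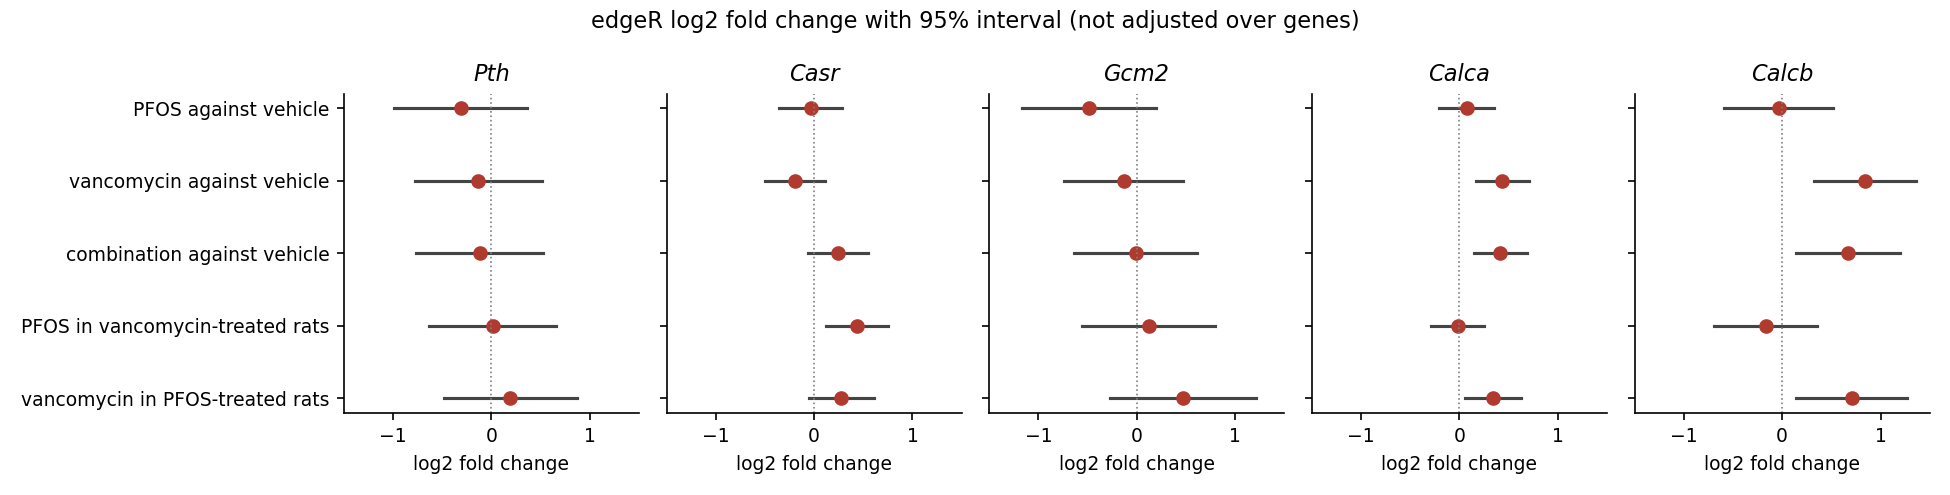
Log2 fold change of the 5 genes (points) with its 95% interval (lines, not adjusted over genes) in 5 contrasts. The intervals of Calca and Calcb lie above 0 in the 3 contrasts that add vancomycin or compare the combination with vehicle, and those of Pth and Gcm2 include 0 in all 5.

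By edgeR, 0 of the 5 genes were called in each of the 6 contrasts, where a call means an adjusted p under 0.05. The background of calls among the 5091 genes tested was low as well: 0.0589% for PFOS against vehicle, 0.00% for vancomycin against vehicle, 2.95% for both compounds against vehicle, 3.26% for PFOS among rats given vancomycin, 0.00% for vancomycin among rats given PFOS, 0.00% for the interaction and 0.00% for vancomycin averaged over both levels of PFOS. At an unadjusted p under 0.05 the number of the 5 genes was 0, 2, 2, 1, 2 and 1 in the first 6 of these, beside 16.54%, 2.57%, 20.05%, 20.31%, 6.25% and 4.03% of all genes tested. DESeq2 called 1 of the 5, Calca in the combination against vehicle (log2 fold change 0.41, DESeq2 adjusted p = 0.0462), and 0 in each of the other 5 contrasts. Over all genes tested DESeq2 called 251 of 5091 in that contrast, and 28, 0, 253, 2 and 0 in the others in the order given. Calca also passed there in edgeR with library totals that leave out Pth and Tg (adjusted p = 0.042) and with only these 2 groups fitted (adjusted p = 0.0416), and without vehicle library 11 (log2 fold change 0.48, adjusted p = 0.0258). It did not pass in edgeR without the filter (adjusted p = 0.272), with log2 depth (0.888) or barcode GC content (0.247) as a covariate, or without combination library 47 (0.144), where these are adjusted p-values.

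Of the 3 parathyroid genes, Pth and Gcm2 varied together between libraries, and over the 46 libraries the relations of Casr with both were weaker. Pth and Gcm2 had a Pearson correlation of 0.84 on log2(CPM + 1) over 46 libraries (Spearman 0.73; permutation p adjusted over 20 relations 0.0001 and 0.0002, the smallest unadjusted p these resamples can give being 1e-05). Without PFOS 27 and 29, which are also the 2 libraries farthest from the median of Pth, it was 0.73. Within treatments the values were 0.40 under vehicle, 0.70 under vancomycin, 0.92 under PFOS (0.71 without the same libraries) and 0.90 under the combination. Pth and Casr correlated at 0.36 (Spearman 0.45, permutation adjusted p = 0.0589 and 0.0074), and at 0.58 without libraries 27 and 29. Pth was low in both of these, while Casr was at 88.6 CPM in 27 and at 49.4 CPM in 29. The latter was the lowest Casr level under PFOS. Within treatments Pth and Casr gave 0.63, 0.40, 0.38 and 0.85 in the same order. Casr and Gcm2 correlated at 0.40 (Spearman 0.40; permutation adjusted p = 0.0273 and 0.0182) and at 0.30 without the 2 libraries farthest from the median of Casr. Without PFOS 27 and 29 it was 0.53, and with all libraries thinned to 1 depth it did not pass (r = 0.33, permutation adjusted p = 0.0800). Its values within treatments were 0.34, 0.30, 0.36 and 0.77. Within the 41 libraries of the usual barcode GC content, the 3 pairs gave 0.84, 0.36 and 0.43.

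The C cell genes Calca and Calcb also varied together, with r = 0.61 (Spearman 0.55; permutation adjusted p = 0.0001 and 0.00107), 0.56 without the 2 libraries farthest from the median, 0.65 without PFOS 27 and 29, and 0.46 on deviations from the treatment means (permutation adjusted p = 0.0137). Within treatments r was 0.52 under vehicle, 0.63 under vancomycin, 0.45 under PFOS and 0.23 under the combination. Between the 2 groups of genes no relation passed. Pth and Calca gave r = -0.16 (Spearman -0.21, permutation adjusted p = 0.415 and 0.259). The other 5 pairs across the 2 groups lay between -0.23 and 0.21. No gene of the 5 correlated with Tg past the threshold.

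**Figure D3:**
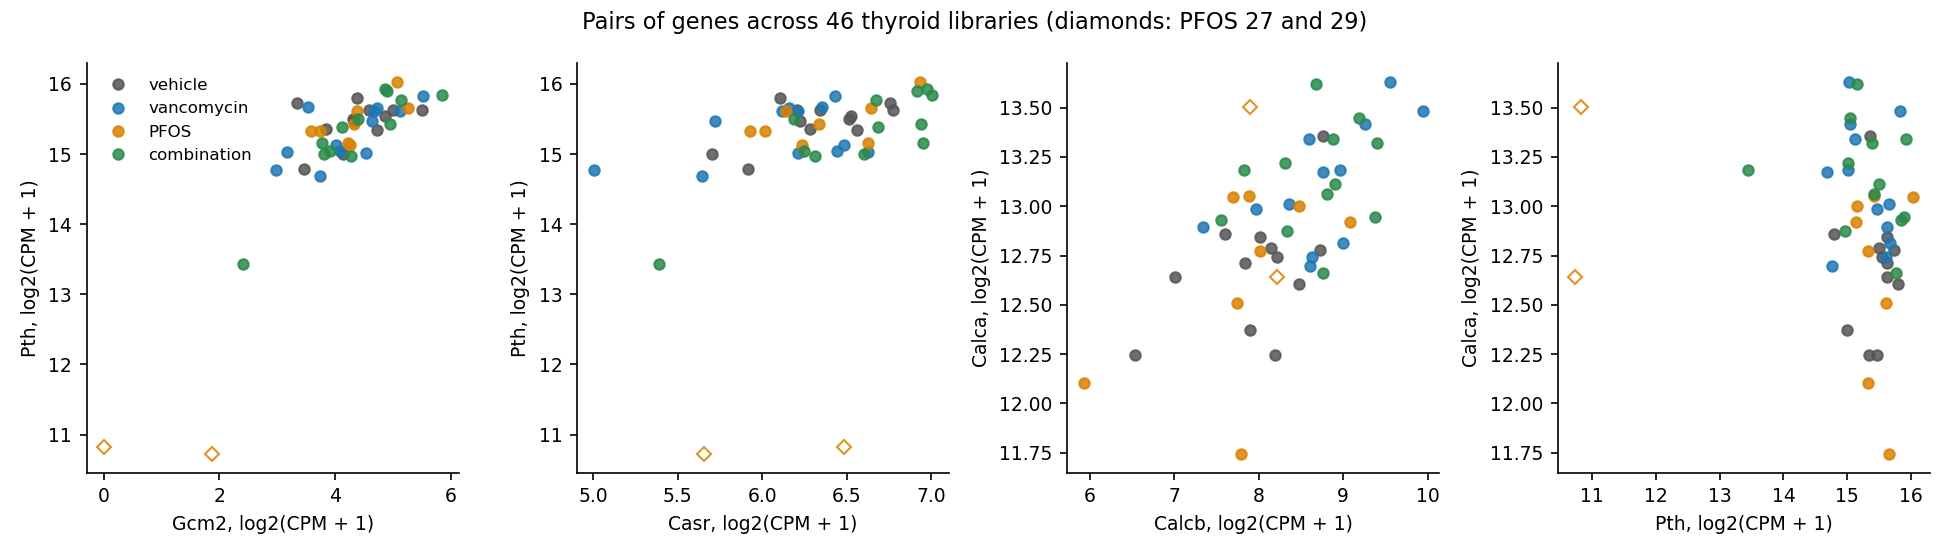
Levels as log2(CPM + 1) for 4 pairs of genes, 1 point per thyroid library, colored by treatment, with PFOS 27 and 29 as diamonds. Pth follows Gcm2 (r = 0.84) and Calca follows Calcb (r = 0.61), and the rightmost panel shows no relation of Pth and Calca (r = -0.16).

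The spread of Pth and Calca exceeded what counting of independent molecules would give. Over the 46 libraries the coefficient of variation of Pth was 33.3% (25.6% without libraries 27 and 29), where Poisson counting at these depths would give 0.71%. For Calca it was 26.4% beside 1.61%, for Calcb 50.0% beside 7.60%, for Casr 28.1% beside 15.9% and for Gcm2 55.6% beside 31.96%. Tg varied by 23.5% beside 0.63%. It is not stated whether PCR duplicates were removed from the counts, and they would raise the counting error above these Poisson values. Single-library values of Casr and Gcm2 are thus limited by depth to a larger degree than those of the hormone genes.

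Over 46 libraries, the genes ranked highest by r with Pth and with Calca had higher r than the other members. They were picked from 4337 genes by this same r, so their lead is not a test. Among 4337 genes with a mean of at least 20 CPM, the 6 most like Pth, by Pearson r of deviations of edgeR's log2 CPM (TMM-scaled, prior count 2) from the treatment mean over 46 libraries, were Rhcg (an ammonia transporter), Sostdc1 (a secreted BMP and Wnt antagonist), Tspan6 (a tetraspanin), Cryba2 (a beta-crystallin), Tnmd (tenomodulin) and Tpx2 (a spindle assembly factor), with r of 0.94, 0.93, 0.89, 0.88, 0.88 and 0.85. Without PFOS 27 and 29 their r was 0.89, 0.81, 0.89, 0.65, 0.76 and 0.78. Rhcg stood at 6.18 and 4.00 CPM in those libraries and between 70.2 and 169 CPM in the other 8 PFOS libraries. Tspan6, with 297 and 327 CPM beside 678 to 1339 CPM in the other 8, was less far below them. On this scale Gcm2 had r = 0.77 with Pth (0.71 without the same libraries) and Casr 0.42 (0.65). A total of 20 of the 4337 genes exceeded 0.5 with Pth, and the median gene had r = -0.01.

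The 6 genes most like Calca were Resp18 (a protein of endocrine secretory granules), Pcsk2 (prohormone convertase 2, which cleaves peptide precursors), Uchl1 (a neuroendocrine ubiquitin hydrolase), Scg3 (secretogranin III), Bpifb2 and Scg5 (the chaperone 7B2 of that convertase). Their r was 0.87, 0.80, 0.69, 0.68, 0.67 and 0.67, and 0.85, 0.79, 0.66, 0.64, 0.67 and 0.63 without PFOS 27 and 29. In PFOS 27, where Calca was the highest of its group, Resp18 was at 2311 CPM and Pcsk2 at 396 CPM, each above the 483 to 1631 CPM and 109 to 388 CPM of the other 8 PFOS libraries. Calcb had r = 0.46 with Calca on this scale. Chga correlated with Pth (r = 0.74, and 0.51 without the same libraries) and had r = -0.24 with Calca; the difference of these values was not tested, and the genes share libraries and depth.

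**Figure D4:**
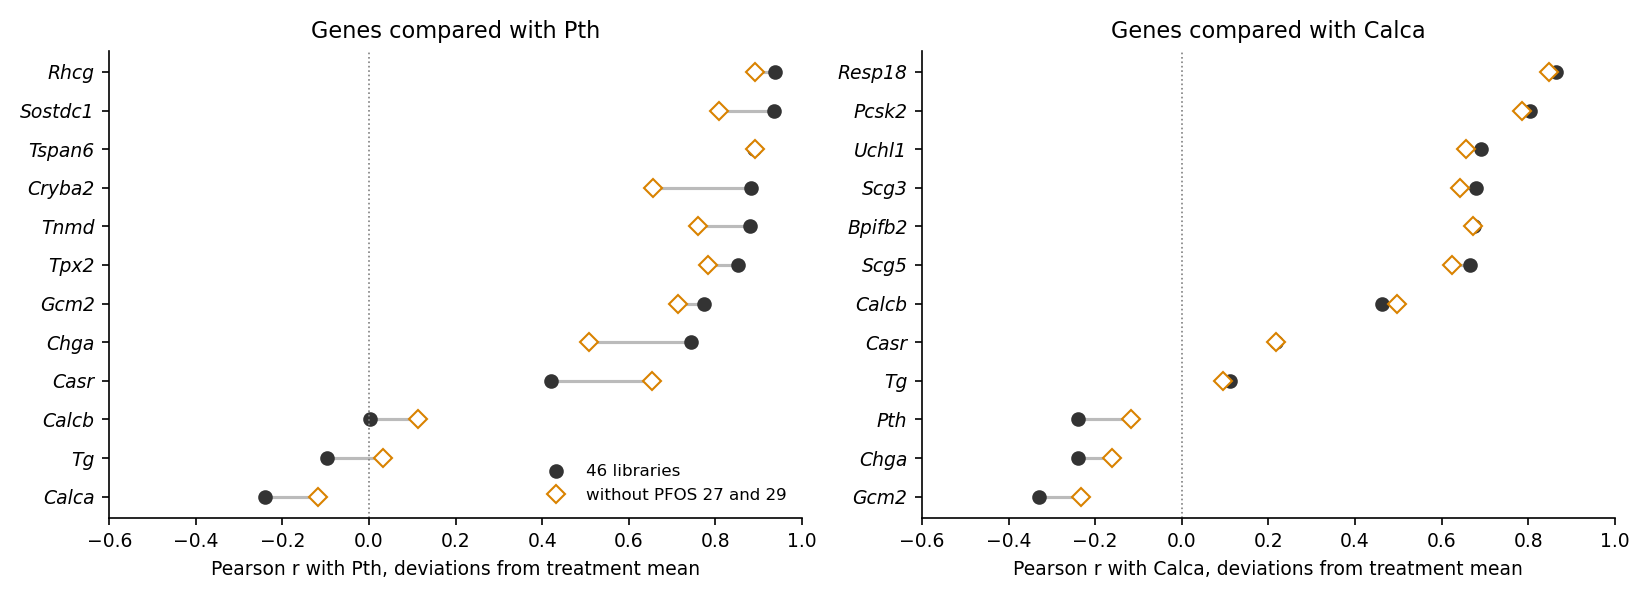
Pearson r of each gene with Pth (left) and with Calca (right) on log2 CPM deviations from the treatment mean, over 46 libraries (dots) and without PFOS 27 and 29 (diamonds). Rhcg is most like Pth (0.94 and 0.89) and Resp18 most like Calca (0.87 and 0.85), whereas Tg lies near 0 in both panels.

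Ratios of counts within a library do not depend on its total. The ratio of Pth to Calca counts ranged from 3.82 to 9.33 under vehicle (median 7.25), from 2.62 to 7.33 under vancomycin (median 4.63), from 0.16 to 15.1 under PFOS (median 5.54) and from 1.19 to 8.63 under the combination (median 4.70). Only 2 of 12 vancomycin libraries and 3 of 12 combination libraries lay above the vehicle mean of the log2 ratio. The mean log2 ratio differed from vehicle by -0.59 under vancomycin and by -0.63 under the combination (permutation adjusted p = 0.0433 and 0.0439 over the 5 contrasts of this ratio). Over all 15 differences of the 3 ratios tested none passed, with a lowest adjusted p of 0.0649. In the libraries with at least 500000 counts the 2 differences were -0.37 (7 against 10 libraries) and 0.02 (2 against 10). Under PFOS the difference was -0.98 (permutation adjusted p = 0.314), and 0.05 without libraries 27 and 29.

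The mean log2 ratio of Pth to Tg differed from vehicle by -1.33 under PFOS (permutation adjusted p = 0.0419 over 5 contrasts). Without libraries 27 and 29, on which this rested, the difference was -0.35 (permutation adjusted p = 0.188). Ratios of Pth to Tg had medians of 1.15 under vehicle, 0.81 under vancomycin, 0.70 under PFOS and 0.79 under the combination. Calca to Tg had medians of 0.16, 0.19, 0.12 and 0.16 in the same order, and its log2 mean was 0.34 higher under vancomycin than under vehicle (permutation adjusted p = 0.0888).

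**Figure D5:**
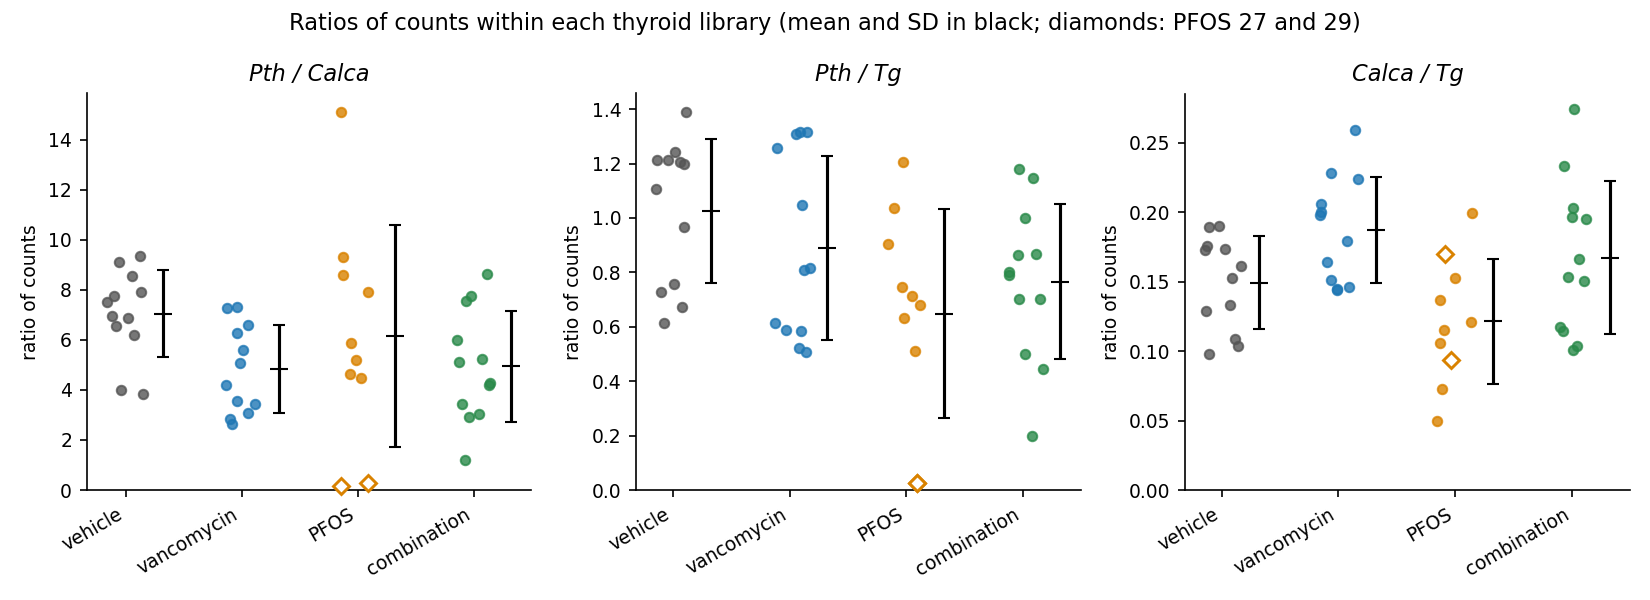
Ratio of counts within each thyroid library for Pth to Calca, Pth to Tg and Calca to Tg, by treatment, with the group mean and SD in black and PFOS 27 and 29 as diamonds. The Pth to Calca ratio has medians of 7.25 under vehicle, 4.63 under vancomycin and 4.70 under the combination, with overlapping ranges.

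Of the wider lists, few genes were called in the 6 contrasts. The parathyroid list (identity genes and regulators of PTH, the members included) had 9 of 27 genes tested. The list's median log2 fold change was -0.34, -0.13, -0.11, 0.01 and 0.15 for PFOS, vancomycin and both against vehicle, PFOS among rats given vancomycin, and vancomycin among rats given PFOS. At an unadjusted p under 0.05 there were 2, 0, 3, 4 and 0 of its 9 tested genes, beside 16.54%, 2.57%, 20.05%, 20.31% and 6.25% of all genes tested. The list's median without PFOS 27 and 29 was -0.14 for PFOS against vehicle and -0.12 for vancomycin among rats given PFOS, the latter with the opposite sign. Over all genes tested the medians were between 0.00 and 0.03. Besides the members, abundant genes of this list included Chga, Slc20a1 (a sodium-phosphate cotransporter) and Furin (a proprotein convertase). Chga averaged 1320 ± 787 CPM under vehicle, 1126 ± 581 under vancomycin, 685 ± 368 under PFOS and 717 ± 265 under the combination. It gave -0.97 for PFOS and -0.93 for the combination against vehicle (edgeR adjusted p = 0.167 and 0.107), and -0.69 for PFOS without PFOS 27 and 29 (edgeR adjusted p = 0.361). For PFOS averaged over both levels of vancomycin, without PFOS 27 and 29, Chga passed with -0.70 (edgeR adjusted p = 0.0362). In that fit, added after the data were seen, 3 of the 9 tested list genes were called, Chga among them. The same fit called 1 of 19 tested genes of the C cell list described below and 0 of 15 follicular genes. Its share of calls over all 5227 genes tested was not computed, so these counts have no background of their own. With these libraries kept, 13.1% of all genes tested were called in the averaged contrast. Genes too scarce to test included Gata3, a transcription factor of parathyroid development, at 2.87 CPM, and Vdr, the vitamin D receptor, at 0.566 CPM.

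The C cell list (calcitonin, its processing and secretory granules, with Calca and Calcb included) had 19 of 30 genes tested. By edgeR 0 of them were called in each contrast (0.00% to 3.26% of all genes were called). In the same 5 contrasts 1, 4, 6, 2 and 3 of its genes had an unadjusted p under 0.05, beside the same shares of all genes. Its medians were -0.06, 0.18, 0.22, -0.03 and 0.26. They were largest in the 3 contrasts in which Calca and Calcb were higher, but both genes are part of these medians and counts. Without PFOS 27 and 29 the median was -0.15 for PFOS against vehicle and 0.33 for vancomycin among rats given PFOS. Resp18 averaged 1083 ± 234 CPM under vehicle, 1411 ± 257 under vancomycin, 1260 ± 499 under PFOS and 1380 ± 247 under the combination, and its difference was 0.39 for vancomycin and 0.31 for the combination (edgeR adjusted p = 0.9998 and 0.201). Scg5 and Pcsk2 gave 0.18 and 0.18 for vancomycin, and 0.04 and 0.27 for the combination. Chga, which is on this list as well as the parathyroid list, went the other way. It gave -0.22 for vancomycin and -0.93 for the combination against vehicle. The summed level of the follicular markers had a median of 45431 CPM under vehicle, 49313 under vancomycin, 63017 under PFOS and 61359 under the combination, and their part in the values of the 5 genes was not tested. Tg gave 0.37 for PFOS against vehicle (edgeR adjusted p = 0.146), and 0.33 without PFOS 27 and 29 (edgeR adjusted p = 0.306).

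Receptors for these hormones were scarce in the thyroid libraries. Of 12 genes for receptors and related peptides, 4 were tested and 0 called in each contrast by edgeR. Over the 46 libraries the PTH receptor genes Pth1r and Pth2r had 19 and 2 counts, and the calcitonin receptor gene Calcr and its CGRP-binding relative Calcrl had 7 and 24. Iapp (amylin) had 0 counts. The 4 tested genes were Ramp3 and Ramp2, accessory proteins of Calcrl, at 90.6 and 36.6 CPM, Crcp (CGRP receptor component) at 53.9 CPM and Pthlh (PTH-related peptide) at 15.7 CPM. Of 16 follicular genes, 15 were tested and 1 was called: Tshr, the thyrotropin receptor, rose by 0.53 on the log2 scale with PFOS in vancomycin-treated rats (edgeR adjusted p = 0.0393), a contrast in which 3.26% of all genes tested were called.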

How the data were processed

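RNA of 4 tissues was measured by BRB-seq, and the 48 thyroid libraries were used. The values are whole-number counts per gene, as deposited, in a table of 17483 genes and 192 libraries. Per the submitters' processing notes BWA 0.7.4.4 and the build rn6 were used, with no role stated. The counting step, the strand setting and the handling of molecular identifiers are not given in the sources used here.

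Libraries under 100000 counts were left out, which removed 2 PFOS libraries. Levels are CPM from library totals. Counts were fitted with edgeR 4.0.16 (R 4.3.3; filterByExpr with a minimum count of 10, TMM, robust quasi-likelihood) over all 4 treatments, with p-values adjusted by Benjamini-Hochberg over 5091 genes and a threshold of 0.05; without the filter 14902 genes were tested. Correlations of the 5 genes within thyroid used log2(CPM + 1) and permutation tests (two-sided, 100000 resamples). Log2 ratios were compared by the same kind of test. Pairs of hypothalamus and thyroid libraries used unscaled thyroid counts. Alternatives included DESeq2 1.42.0, other totals, filters, depth minimums, covariates and each library left out. Leaving out PFOS 27 and 29 or the 5 combination libraries, thinning, averaging over the other compound and the use of only deep pairs of hypothalamus and thyroid libraries were added after the data were seen. The fit was tested on simulated data.

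Genes named are the 5 members, Tg and Chga, the 6 genes most like Pth and Calca among those with a mean of at least 20 CPM, and, from 3 lists, every gene called and otherwise the 4 most abundant. Gata3, Vdr and the scarce receptor genes were named after their values were seen. Some genes that this rule or these lists hold are not reported here. The members and lists were chosen with earlier results of these data known. RefSeq (GRCr8) symbols matched 15578 names, synonyms 1556, and 349 were unmatched.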

Additional observations from a re-analysis of the deposited data

Results flagged for a closer look

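The 5 genes also had counts in the other tissues, which enter no comparison above. In liver, pooled levels were 697.8 CPM for Pth (1.66% of the pooled thyroid level), 79.9 CPM for Calca (1.04%), 1.74 CPM for Calcb (0.53%), 0.358 CPM for Casr (0.45%) and 0.670 CPM for Gcm2 (3.18%). The follicular gene Tg was also found in liver, at 989 CPM (1.96%), and the source of these counts was not tested. In pituitary pooled levels were 0.215 CPM for Pth, 9.50 CPM for Calca, 40.2 CPM for Calcb and 0.573 CPM for Casr. Hypothalamus gave 20.3 CPM for Pth, 8.35 CPM for Calca, 2.29 CPM for Calcb, 1.71 CPM for Casr and 0.323 CPM for Gcm2. Each lies above the level that a count of 0 allows in its pooled libraries.

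Liver shared a plate with thyroid, and each hypothalamus library carried the well barcode of the thyroid library of the same number. For these pairs hypothalamus levels were log2(CPM + 1), while thyroid values were log2(count + 1), not scaled to the library total, so they also carry thyroid depth. Over 47 such pairs Pth in hypothalamus followed the Pth counts in thyroid with r = 0.90 (Spearman 0.80). It was 0.83 without the 2 farthest libraries. The permutation adjusted p was 3e-05, the smallest possible over 3 relations. These pairs leave out number 44, whose hypothalamus library was shallow, and include thyroid libraries 28 and 32, which were left out of the report for depth. Over the 45 pairs in which both libraries were deep enough, r was 0.84 for Pth and 0.23 for Tg, which had r = 0.72 over the 47. Calca gave r = 0.08 over the 47. The part of shared barcodes in these levels was not tested.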

How the results depend on the processing

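No paired analysis was possible because the treatment groups share no replicate numbers. Of 446 alternative log2 fold changes of the 5 genes, 404 kept their direction and side of the threshold, 36 changed sign with no call on either side and 6 newly passed. The count of the 5 genes called was 1 in place of 0 for the combination against vehicle with DESeq2, with totals without Pth and Tg, and with 2 groups fitted, and for PFOS in vancomycin-treated rats at a minimum of 500000 counts. Leaving out single libraries gave 0 to 1 in both. At that minimum 3 of 20 relations passed in place of 5, 1 of 15 ratio differences passed (each adjusted within its ratio) in place of 3, Pth and Calca had r = 0.094, and log2 Pth/Calca for the combination was 0.020. That ratio under PFOS was 0.048 without libraries 27 and 29, and the averaged vancomycin difference of Pth was 0.030. The cause of these shifts was not tested. Gcm2, with at most 49 counts in a library, is limited by depth and missed the filter in some of the smaller fits.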

Other observations

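Markers of neighbouring tissues varied between thyroid libraries. The summed level of 12 skeletal muscle genes had medians of 12.9 CPM under vehicle, 16.5 under vancomycin, 109.7 under PFOS and 25.1 under the combination, with single libraries from 1.5 to 850.4 CPM. In PFOS 27 and 29 it was 14.4 and 169.5 CPM. Thymocyte and T cell genes summed to between 3.6 and 321 CPM, with 18.6 and 151 CPM in the same libraries. Endothelial genes summed to 1449 and 1115 CPM there, beside a PFOS median of 934 CPM. Cartilage genes stayed at or below 15.9 CPM, with Matn1 and Matn3 at 0. The part of these cells in the levels of the 5 genes was not tested.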
